A study of Mus musculus with 6 samples.

Results

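Regulated secretion in the pituitary runs through a fixed set of vesicle proteins, and 67 genes of that set were followed here in glands of mice with and without the clock factor BMAL1. The genes were taken by name from the array annotation. They are the synaptotagmins, syntaxins, syntaxin-binding proteins, VAMPs, SNAP proteins, complexins, the Rab3 GTPases with 3 of their regulators, the Rab27 GTPases, and the granins Chga, Chgb, Scg2 and Scg3. Each gene is represented by its brightest probe set, the cluster of short probes that reads 1 transcript, among probe sets assigned to 1 gene. The 67 genes are part of 12393 with such a probe set, and 52 of them were bright enough to be tested, of 8033 genes tested in all. The name rule also takes 8 genes from Rab30 to Rab38, which share only the letters with Rab3 and are described apart.

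All mice were male, of the C57BL/6J strain and 8 to 12 weeks old. They lived under 12 h of light and 12 h of darkness, and whole glands were taken at zeitgeber time 12, when the lights go off. Wild-type mice gave 3 arrays (replicates 1 to 3) and clock-deficient Bmal1-/- mice, of whose allele the labels say no more, gave 3 more (replicates 4 to 6). A replicate is a pool of 3 glands from separate animals, and n = 3 per genotype throughout. Values are linear intensities from an Affymetrix 3' expression array, whose small number here limits the precision.

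The targeted gene does not check the labels. Arntl, which encodes BMAL1, read 39.6, 51.7 and 38.6 in wild type and 112.1, 102 and 127.5 on the arrays labelled Bmal1-/- (log2 fold change 1.13, SE 0.14, limma adjusted p = 0.000653). The sources used here do not place its probe set inside or outside the deleted part, so each direction below is that of the arrays labelled Bmal1-/-. Across the tested probe sets, Pearson's r for pairs of arrays ran from 0.980 to 0.986 inside a genotype and from 0.970 to 0.976 across genotypes.

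Endocrine cells store peptide hormones in dense-core granules, whose cores are built around granins. A granule docks at the plasma membrane with the help of Rab3 and Rab27 GTPases. It fuses when VAMP on the granule zips together with a syntaxin and a SNAP-25-type protein on the plasma membrane into a SNARE complex, a bundle of helices. Munc18 proteins, encoded by the Stxbp genes, chaperone the syntaxin. Complexins clamp the partly zipped complex, and those synaptotagmins that bind calcium trigger the last step when calcium enters.

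Of the 52 tested genes 3 passed the test, which is 5.77% of them: on the arrays labelled Bmal1-/-, 2 were higher and 1 was lower. Over all 8033 tested genes 5.68% passed, 3.00% higher and 2.68% lower, so the share among the exocytosis genes lay at that of the array as a whole. The test was limma's, with Benjamini-Hochberg adjustment over all probe sets tested and a threshold of 0.05. Stx1a and Syt9 rose and Syt17 fell. The median log2 fold change over the 52 genes was -0.0032 and over all tested genes -0.00032, and the median absolute change was 0.12 and 0.14. Of the 52 genes, 27 lay below 0, or 51.9% against 50.1% of all tested genes. At 14 of the 52 the wild-type and labelled arrays did not overlap, or 26.9% against 26.4%, and 11 had an unadjusted p under 0.05, or 21.2% against 21.5%. In a whole gland, fewer cells of a type and less RNA per cell cannot be told apart.

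**Figure D1:**
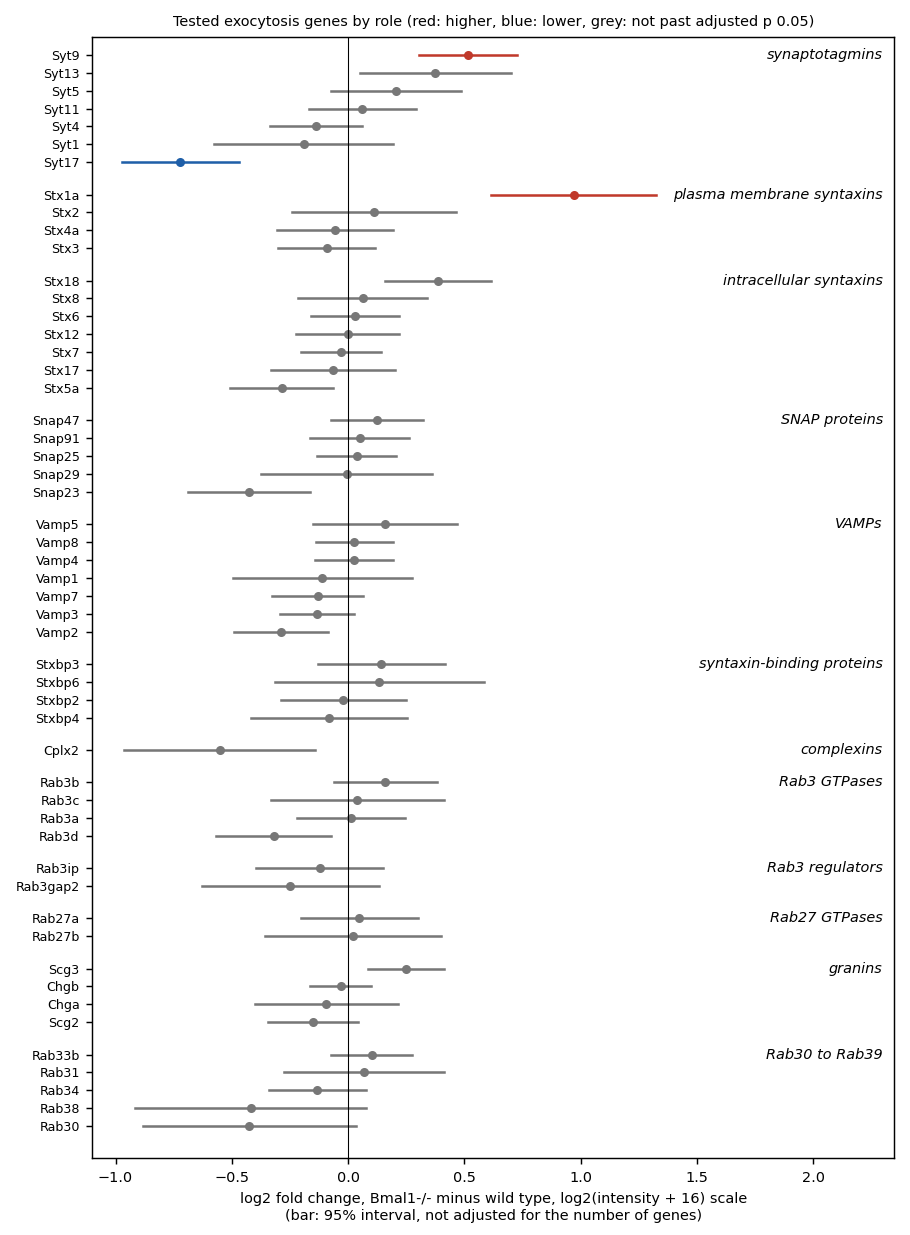
Log2 fold change (x axis, arrays labelled Bmal1-/- minus wild type, on the log2(intensity + 16) scale) of the 52 tested genes, grouped by role; points are estimates and bars are 95% intervals from limma, not adjusted for the number of genes. Stx1a (0.97) and Syt9 (0.52) in red and Syt17 (-0.72) in blue passed, and the other 49 in grey did not.

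Stx1a encodes syntaxin 1A, the plasma membrane syntaxin of neurons and endocrine cells and a core part of the fusion complex. Its brightest probe set read 63.5, 47.4 and 46.2 in wild type and 90, 142.6 and 124.4 on the arrays labelled Bmal1-/-. The genotypes did not overlap, and Bmal1-/- replicate 4 was the lowest of its group. The means were 52.4 ± 9.66 (SD) and 119 ± 26.7. The log2 fold change was 0.97 (SE 0.16, adjusted p = 0.00536), or 1.96-fold on the log2(intensity + 16) scale, which understates the change of dim genes. A further Stx1a probe set read 29.7, 34.7 and 34.9 against 75.3, 44.4 and 52.2. It did not overlap between genotypes either, with Bmal1-/- replicate 4 now the highest of its group, but it did not pass (log2 fold change 0.56, SE 0.17, adjusted p = 0.0727). The suffix of the brighter probe set, _x_at, marks probes that can also match other transcripts. When probe sets with the suffixes _x_at and _s_at were left out, Stx1a rested on the dimmer one and was no longer called (adjusted p = 0.0693).

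Syt9 encodes a synaptotagmin with calcium-binding C2 domains that sits on secretory vesicles. It read 138.6, 133.4 and 126.1 in wild type and 190, 193.4 and 206.7 on the arrays labelled Bmal1-/-. All 3 labelled arrays lay above all wild-type arrays, with little spread inside either group. The means were 133 ± 6.28 and 197 ± 8.83 (log2 fold change 0.52, SE 0.10, adjusted p = 0.0101), and the gene has 1 probe set.

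Syt17, also called B/K protein, encodes an atypical synaptotagmin. It read 135.6, 113.4 and 119.8 in wild type and 65.7, 70.9 and 67.7 on the arrays labelled Bmal1-/-. The genotypes were far apart and the labelled group was the tighter one. The means were 123 ± 11.4 and 68.1 ± 2.62. The log2 fold change was -0.72 (SE 0.12, adjusted p = 0.00414), or 1.65-fold lower. The other Syt17 probe set fell as well, from 58.2, 66.7 and 57.9 to 33.9, 35.6 and 34.3 (log2 fold change -0.60, SE 0.13, adjusted p = 0.0212). Both probe sets of Syt17 thus passed in the same direction.

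**Figure D2:**
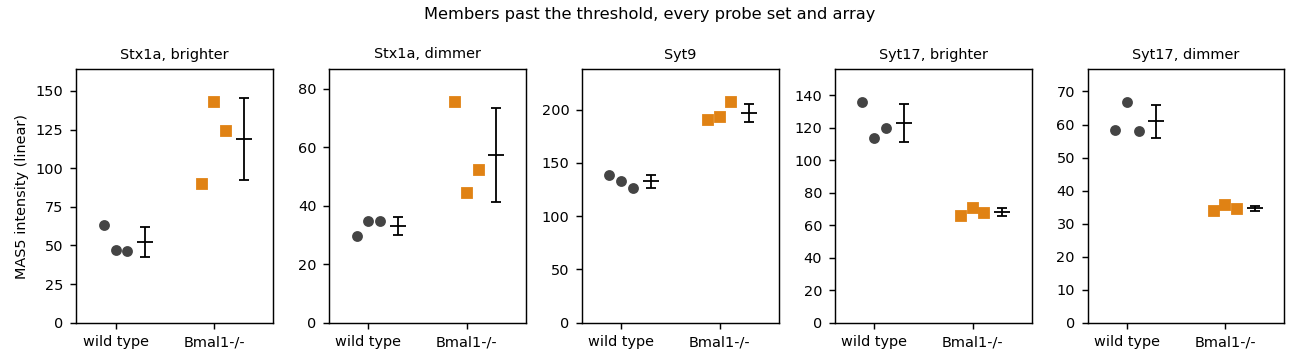
Linear MAS5 intensity (y axis, from 0) of every probe set of Stx1a, Syt9 and Syt17 on each of the 6 arrays; circles are wild type, squares Bmal1-/-, and bars show mean ± SD (n = 3). In all 5 panels the genotypes do not overlap, and the dimmer Stx1a probe set is the 1 panel that did not pass the test.

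Syt9 and Syt17 lie within 20 Mb of Arntl on the same chromosome in the RefSeq gene table of GRCm38.p6. In that stretch 11.8% of 187 tested genes passed, against 5.53% of 7846 elsewhere. The third exocytosis gene in the stretch, Stx4a, which encodes the syntaxin of general surface delivery, read 132.6, 141.3 and 128.8 in wild type and 135.8, 141.1 and 110.2 on the labelled arrays and did not pass (log2 fold change -0.06, SE 0.11). Of the 49 tested exocytosis genes outside the stretch, 1, Stx1a, passed, or 2.04%. The part of this neighbourhood in the Syt9 and Syt17 differences was not tested.

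Of the called genes, Stx1a and Syt9 were matched in the RefSeq promoter table and Syt17 was not. The windows of Stx1a and Syt9 are shown because BMAL1 acts by binding DNA at the E-box CACGTG. The windows are the 250 bases before the transcription start in RefSeq on GRCm38.p6, plus strand, with the letters TGACG (a half-site of the cyclic AMP response element, searched on both strands) in capitals. Neither holds CACGTG. The Stx1a window holds 1 TGACG and the Syt9 window none. GC content is 62% and 80.4%, against a median of 52.4% over all windows of that length.
Stx1a, chr5:135023232-135023481: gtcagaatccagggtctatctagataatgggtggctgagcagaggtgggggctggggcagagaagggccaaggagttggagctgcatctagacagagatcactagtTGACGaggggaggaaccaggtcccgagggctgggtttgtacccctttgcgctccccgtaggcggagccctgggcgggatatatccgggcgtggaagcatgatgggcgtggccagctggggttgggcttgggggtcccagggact
Syt9, chr7:107370540-107370789: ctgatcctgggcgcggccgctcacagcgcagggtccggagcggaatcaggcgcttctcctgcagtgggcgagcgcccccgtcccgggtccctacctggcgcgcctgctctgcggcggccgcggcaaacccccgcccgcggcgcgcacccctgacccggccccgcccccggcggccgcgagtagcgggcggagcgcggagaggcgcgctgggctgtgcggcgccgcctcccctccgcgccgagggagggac

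In windows running on to 50 bases after the start, 8 of the 52 exocytosis genes with a RefSeq window held CACGTG, or 15.4%, against 8.09% of all 27025 genes with one. Of these 8 genes 5 were tested and none of the 5 passed. The untested ones were the dim Cplx3, Rab3il1 and Syt6. Cplx3 read 10.8, 14 and 14 in wild type and 5.1, 1.3 and 1.6 on the labelled arrays, without overlap. With no filter on low values their log2 fold changes were -0.64, 0.34 and -0.26, and none passed (limma adjusted p = 0.0645, 0.581 and 0.54). The 5 tested genes are shown by their sites, with up to 10 flanking bases and the E-box in capitals. They are Stx6 (endosomal syntaxin, log2 fold change 0.03), Rab27a (granule docking GTPase, 0.05) and Rab3gap2 (subunit of the complex that switches Rab3 off, -0.25). The others are Stxbp2 (Munc18-2, -0.02) and Vamp4 (a VAMP of the trans-Golgi network, 0.03). These values are of the brightest probe sets. Further tested ones were at 0.20, 0.08 and -0.41 for Stx6 and 0.09 and -0.18 for Vamp4. For Rab27a the value was -0.06, and for Stxbp2 0.22 and 0.39. None of these passed. The genotypes did not overlap at -0.41 (adjusted p = 0.110) and at -0.18 (adjusted p = 0.196).
Stx6, chr1:155158608-155158633, plus strand: cgatctgggtCACGTGagcctgagtg
Rab27a, chr9:73063898-73063917, plus strand: cttgCACGTGctcctccgtc
Rab3gap2, chr1:185203992-185204017, plus strand: gaccgcgagtCACGTGtccgaagctg
Stxbp2, chr8:3631085-3631110, plus strand: gggtggggccCACGTGgatgacgcgt
Vamp4, chr1:162570342-162570367, plus strand: atgtacaaccCACGTGctcctccatc
The full cyclic AMP response element TGACGTCA was in 3 of the 52 windows, or 5.77%, against 2.03% of all genes. The 3 are the granin genes Scg2 and Chgb and the Munc18 gene Stxbp3, none of which passed the test. Their sites, with 8 flanking bases, are these.
Scg2, chr1:79440079-79440102, minus strand: tgagccggTGACGTCAgcgtggaa
Chgb, chr2:132781562-132781585, plus strand: ctgctccgTGACGTCAgggctgag
Stxbp3, chr3:108840595-108840618, minus strand: gatgcgcgTGACGTCAcctgaggg
The D-box letters TTATGTAA and TTACGTAA, the site of the clock output factor DBP and its relatives, were in none of the 52 windows and in 1.23% of all. The E-box variant CACGTT was in 1 of the 52 windows, or 1.92%, against 5.44% of all genes. All motifs were searched on both strands. The half-site TGACG, which the full element also contains, was in 40.4% of the 52 windows and 23% of all.

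Granins, the proteins that fill the granule core, gave bright signals and none of the 4 passed. Chgb, chromogranin B, read 6288.1, 6122.4 and 6680.4 in wild type and 6086.4, 6551.4 and 6040.2 on the labelled arrays, and the ranges overlapped in part. Its log2 fold change was -0.03, with a 95% interval of -0.16 to 0.10. Scg2, secretogranin II, read 6201.4, 5039.8 and 6430.7 against 4962.3, 5678.6 and 5203.5 (log2 fold change -0.15, SE 0.09, adjusted p = 0.355), and wild-type replicate 2 was the one wild-type array among the labelled values. Without that array Scg2 passed (log2 fold change -0.26, adjusted p = 0.0407). That was the only one of 16 alternatives in which Scg2 passed. With quantile normalization its log2 fold change was -0.0084 (adjusted p = 0.965). Chga, chromogranin A, spread widely in both groups, at 1126.8, 871.4 and 969.7 against 703.9, 1030.1 and 1077.2 (log2 fold change -0.09, SE 0.14). Scg3, which binds chromogranin A to granule membranes, read 1542.3, 1526.1 and 1524.6 against 1636.1, 1915.7 and 1932.6. The 3 wild-type arrays nearly coincided and all labelled arrays were higher, yet the difference did not pass (log2 fold change 0.25, SE 0.07, adjusted p = 0.0727). It passed without Bmal1-/- replicate 4 (adjusted p = 0.0356).

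The SNAP proteins are named for Snap25, the plasma membrane SNARE of neurons and endocrine cells. Snap25 read 1564.8, 1285 and 1421.4 in wild type and 1508.1, 1435.9 and 1426.4 on the labelled arrays. The groups overlapped fully, and the log2 fold change of 0.04 had a 95% interval of -0.13 to 0.21. Its widely expressed relative Snap23 read 176.9, 155.7 and 190.1 against 128.3, 141.6 and 107.7, without overlap (log2 fold change -0.43, SE 0.12, adjusted p = 0.0596). The 2 further Snap23 probe sets were also below 0, at -0.27 and -0.40, and none of the 3 passed. Snap47 (0.12), Snap29 (-0.01) and Snap91 (0.05) were not past either. Snap91 encodes the clathrin adaptor AP180 and is no SNARE.

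Among the VAMPs, the granule-side SNAREs, none of 7 passed. Vamp2, synaptobrevin 2, the main VAMP of regulated secretion, read 425.8, 343.3 and 401.1 in wild type and 310.6, 310.7 and 325.1 on the labelled arrays. The genotypes did not overlap, with wild-type replicate 2 nearest the labelled values. The log2 fold change was -0.29 (SE 0.09, adjusted p = 0.0945), a further probe set gave -0.28, and without wild-type replicate 2 the gene passed (adjusted p = 0.0306). Vamp3, cellubrevin, gave 668.0, 647.6 and 690.7 against 618.1, 582.4 and 623.7 (log2 fold change -0.13, SE 0.07), and all 5 of its probe sets were below 0 without passing. Vamp7, a VAMP of late endosomes and lysosomes, was at -0.13 and also did not overlap. Vamp8, an endosomal VAMP that also serves granule release in exocrine cells, was at 0.03 with a 95% interval of -0.14 to 0.19.

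Of 4 tested plasma membrane syntaxins, Stx1a alone passed. Stx2 (0.11), Stx3 (-0.09) and Stx4a (-0.06) overlapped between genotypes. The 7 intracellular syntaxins, which serve the endoplasmic reticulum, Golgi and endosomes, gave no call. Stx18, of the endoplasmic reticulum, came nearest at 260.0, 265.8 and 209.4 against 332.4, 341.3 and 299.1, without overlap (log2 fold change 0.39, SE 0.11, adjusted p = 0.0528). Its 4 further probe sets were all above 0, from 0.23 to 0.47, and none passed. The brightest one and those at 0.23 and 0.47 carry the suffix _x_at, so their probes can also match other transcripts. Stx5a, the Golgi syntaxin, read 518.6, 528.8 and 484.3 against 367.6, 400.8 and 486.8, where Bmal1-/- replicate 6 reached the wild-type range (log2 fold change -0.29, SE 0.10, adjusted p = 0.123; 0.0457 without that array). Stx7, Stx8, Stx12 and Stx17 lay between -0.06 and 0.06 on their brightest probe sets. A further probe set of Stx8 was at -0.33 (adjusted p = 0.205), without overlap and not past. The 3 further probe sets of Stx17 were at -0.30 (adjusted p = 0.230), 0.19 (adjusted p = 0.539) and 0.26 (adjusted p = 0.443), none of them past, and the groups did not overlap on the first and second of these.

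The partners of the SNAREs showed no call. The single tested complexin, Cplx2, read 214.9, 271.2 and 247.5 in wild type and 122.4, 241.1 and 139.6 on the labelled arrays. Bmal1-/- replicate 5 fell inside the wild-type range while the other 2 were well below it. The log2 fold change was -0.55 (SE 0.19, adjusted p = 0.109), and it was -0.82 without replicate 5 (adjusted p = 0.00674). On their brightest probe sets the 4 tested Stxbp genes, Stxbp2, Stxbp3, Stxbp4 and Stxbp6, lay between -0.08 and 0.14 with adjusted p from 0.565 upward. Further probe sets of Stxbp2 were at 0.22 (adjusted p = 0.601) and 0.39 (adjusted p = 0.298) and did not pass.

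Rab3 and Rab27 GTPases, which tether granules, gave no call. Rab3d, the form known from exocrine and endocrine granules, read 181.7, 139.7 and 172.3 against 126.2, 128.8 and 128.8. All labelled arrays were lower and nearly identical (log2 fold change -0.32, SE 0.11, adjusted p = 0.124). Its 2 further tested probe sets gave -0.03 and -0.16. Rab3a (0.01), Rab3b (0.16), Rab3c (0.04), Rab27a (0.05) and Rab27b (0.02) were nearer 0 on their brightest probe sets. A further Rab3c probe set was at 0.47 (SE 0.20, adjusted p = 0.196). For Rab3a the 95% interval was -0.22 to 0.24. The genes with names from Rab30 onward, which serve other membrane steps, had 5 of 8 tested and none past, with Rab30 at -0.42 (SE 0.21, adjusted p = 0.274). Rab30 read 96.9, 42.4 and 87.0 in wild type against 45.9, 50.7 and 52.1, so the low wild-type replicate 2 lay below all labelled arrays, and without it Rab30 passed (log2 fold change -0.72, adjusted p = 0.0130).

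The remaining synaptotagmins did not pass on their brightest probe set. Syt4, which lacks one of the usual calcium-binding residues and is found on granules of endocrine cells, differed between its probe sets. The brighter one read 712, 855.2 and 842.5 in wild type and 698.9, 685.1 and 798.8 on the labelled arrays, with overlap (log2 fold change -0.14, SE 0.09, adjusted p = 0.419). The other fell from 592.1, 421.3 and 599.5 to 291.9, 314.5 and 264.7, without overlap (log2 fold change -0.84, SE 0.13, adjusted p = 0.00276). The sources used here do not place the probe sets on the transcript, and the difference between them was not tested. Counting a gene as called if any tested probe set passed, 4 of the 52 exocytosis genes passed, against 7.12% of all tested genes. Syt13 (0.38, SE 0.15, adjusted p = 0.170) and Syt5 (0.21) lay above 0, and Syt1, the fast calcium sensor of synapses and a close relative of Syt9, was at -0.19 (SE 0.18).

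**Figure D3:**
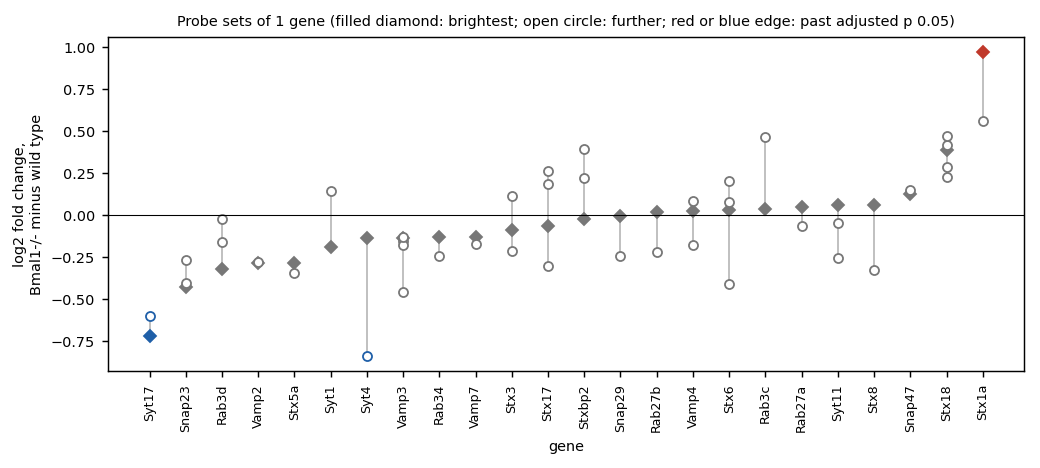
Log2 fold change (y axis, arrays labelled Bmal1-/- minus wild type) of every tested probe set of the genes with more than 1; filled diamonds are the brightest probe set, open circles the others, and a red or blue edge marks adjusted p under 0.05. Syt17 has both probe sets past the threshold, Syt4 has only its further one, and Stx1a only its brightest.

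Across the genes with several tested probe sets, 27 of 40 further probe sets had the sign of the brightest one, and 2 of the 40, those of Syt17 and Syt4, passed. The 8 genes with an unadjusted p under 0.05 that did not pass were Stx18, Snap23, Scg3, Vamp2, Cplx2, Stx5a, Rab3d and Syt13. Without wild-type replicate 2, 9 of the exocytosis genes passed, 3 higher and 6 lower, where 6.97% of all genes did. The added genes were Stx18 upward and Snap23, Vamp2, Rab3d, Scg2 and Rab30 downward.

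**Figure D4:**
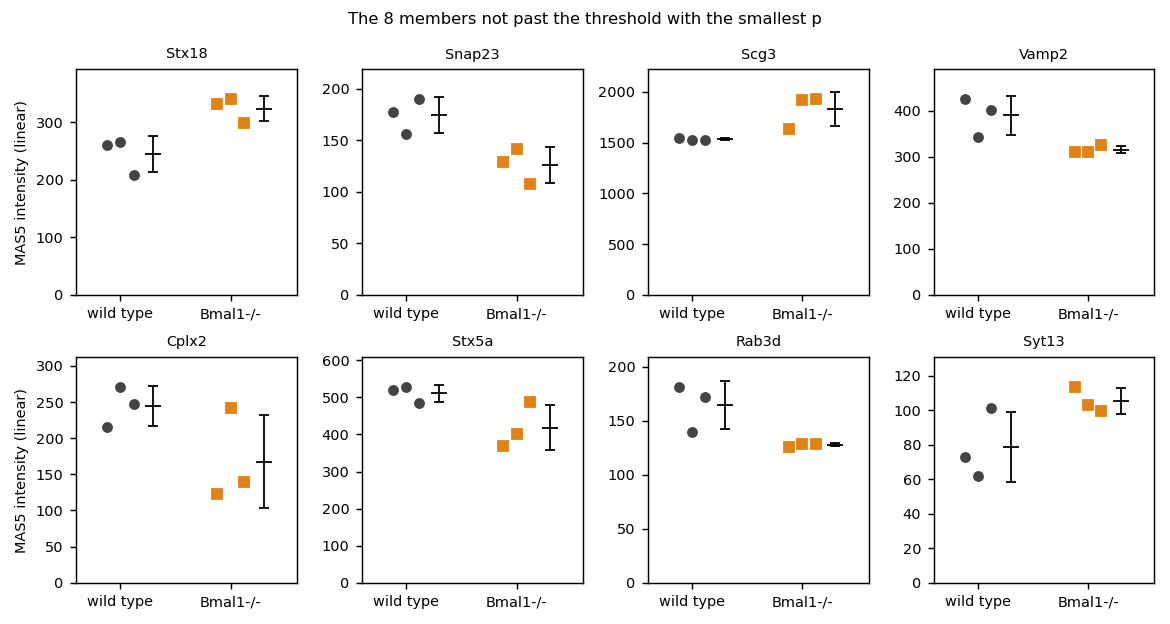
Linear MAS5 intensity (y axis, from 0) on each of the 6 arrays for the 8 genes nearest the threshold that did not pass it; circles are wild type, squares Bmal1-/-, bars mean ± SD (n = 3). Stx18, Snap23, Scg3, Vamp2 and Rab3d do not overlap between genotypes, while Cplx2, Stx5a and Syt13 do.

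The 15 genes not tested were Syt2, Syt3, Syt6, Syt7, Syt8, Syt10, Syt12, Cplx1, Cplx3, Cplx4, Stx19, Rab3il1, Rab32, Rab33a and Rab37. No array read them above 34.5. Of these, Cplx3, a complexin known from the retina, read 10.8, 14 and 14 in wild type and 5.1, 1.3 and 1.6 on the labelled arrays, and Syt12 read 16.4, 31.5 and 22.5 against 3.4, 12 and 5.3. Neither overlapped between genotypes. Tested with no filter on low values, neither passed (adjusted p = 0.0645 and 0.101), and none of the 15 did.

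Other genes of the secretory route were counted in 4 lists, of which 73 genes were tested, 3 rose and 3 fell. That was 8.22% of them, against 5.68% of all tested genes. By list the shares were 25%, 10.5%, 0% and 5.56%, in the order described below. Of 12 genes for prohormone processing and granule content, Pam, which amidates peptide hormones, read 238.4, 299.5 and 200.2 in wild type and 141.9, 159.7 and 146.9 on the labelled arrays (log2 fold change -0.65, SE 0.13, adjusted p = 0.0149). Pcsk1, a prohormone convertase, also fell (-0.50, SE 0.11), and its inhibitor Pcsk1n rose (0.32, SE 0.08). The Pam call ended without Bmal1-/- replicate 4 (adjusted p = 0.0536), that of Pcsk1 without Bmal1-/- replicate 5 or wild-type replicate 3 (up to 0.0866), and that of Pcsk1n without any array but wild-type replicate 2 (up to 0.156). Cpe, the carboxypeptidase that trims the cut hormones, was at -0.02 and Scg5, the chaperone of the convertase PCSK2, at 0.01.

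Of 19 docking and priming genes 2 rose. Cadps, the CAPS protein that primes dense-core granules, read 169.4, 201 and 194 against 247.9, 229 and 290.1 (log2 fold change 0.41, SE 0.11, adjusted p = 0.0495). Baiap3, a Munc13-related protein of dense-core granule traffic, read 156.4, 142.8 and 141 against 201.4, 190.2 and 188.1 (0.36, SE 0.10, adjusted p = 0.0484). Both genes had no overlap, but the Baiap3 call ended with each omission of 1 array and the Cadps call with any but that of wild-type replicate 2 (adjusted p up to 0.142 and 0.175). Unc13a and Unc13b, which open syntaxin for assembly, were at -0.03 and 0.05.

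None of 24 further SNAREs and disassembly factors passed. Bnip1 (0.58, adjusted p = 0.0539) and Use1 (0.30, adjusted p = 0.0543), partners of Stx18 in the endoplasmic reticulum SNARE complex, were nearest, and Nsf, the ATPase that takes SNARE complexes apart, was at 0.18 (adjusted p = 0.218). Of 18 vesicle membrane genes, Synpr, synaptoporin, fell from 162.3, 186 and 148.4 to 109.6, 85.2 and 100 (log2 fold change -0.67, SE 0.12, adjusted p = 0.00880). Its relative Syp, synaptophysin, was at -0.05. The medians of the 4 lists were -0.06, 0.08, 0.02 and 0.03, in the order given.

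Markers of cell types were read beside these genes. The hormone genes of all lineages were bright on all 6 arrays, and no marker was listed at 0. The summed level of 6 macrophage markers was 474 to 497 in wild type and 341 to 387 on the labelled arrays, with all 6 below 0 and 1, C1qa, past the threshold (-0.48, SE 0.11). Csf1r was at -0.43, C1qc at -0.32 and C1qb at -0.22, while Cd68 and Ptprc were near 0 (each -0.08, SE 0.17). The sum of 6 endothelial markers was 479 to 569 against 588 to 655, with Plvap past the threshold upward (0.40, SE 0.09) and Kdr (-0.38) and Pecam1 below 0; without Plvap the other 5 summed to 220 to 278.5 against 256.8 to 265.9 and overlapped. The somatotroph markers Gh (-0.27, SE 0.06) and Ghrhr (-0.66, SE 0.11) both fell and passed. Their sum, nearly all of it from the Gh probe set, was 18786 to 21066 against 15835 to 17129. Axon markers, of which 5 of 6 were tested and none passed, summed to 215 to 273 against 222 to 308 and overlapped, though Nefm (-0.51, adjusted p = 0.0684) and Nefh (0.38) lay on opposite sides. Of 2 tested glial markers Mbp rose (0.52, SE 0.11) and Cldn11 was at -0.31 and did not pass. Gfap, not tested, was at 25.5, 8.2 and 20 in wild type and 11.2, 11.2 and 5.7 on the labelled arrays. The sum of 5 on the array was 120 to 183 against 164 to 193. In other lists Dio2 (thyrotroph, 1.11), Aldh1a2 (folliculostellate and stem, 0.58) and Col1a2 (mesenchyme, 0.30) rose, and Dcn (mesenchyme, -0.80) fell. The other tested markers of these lists did not pass. They were Tshb (-0.04) and Trhr (0.12), Sox2 (0.05) and Aldoc (0.02), and Col1a1 (0.18) and Lum (-0.36). S100b, not tested, read 11.3, 11.1 and 13.8 in wild type and 5, 0.4 and 7 on the labelled arrays. Slc1a3, not tested either, read 15.9, 10.9 and 7.7 against 14.9, 19.9 and 19.5. No lactotroph, corticotroph, gonadotroph or erythrocyte marker passed. The part of cell makeup in the Stx1a, Syt9 and Syt17 differences was not tested.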

How the data were processed

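Biotin-labelled cRNA from 1 ug of total RNA per pool was read on Affymetrix mouse arrays. The deposited table holds 1 linear intensity per probe set and array, from MAS5, per the submitters' processing notes. The sources used here give neither its version nor detection calls. The 2% trimmed mean was 100 on every array. MAS5 subtracts a mismatch background, so low values are noisy.

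The platform annotation assigns 20380 of 22626 probe sets to 1 gene and 691 to several, and names no gene for 1555. Another 64 are controls and were left out. Values were taken as log2(intensity + 16), and the brightest 60% by mean, 13576 probe sets (the dimmest at 17.3), were tested in R 4.3.3 by limma 3.58.1 (lmFit, then eBayes with an intensity trend; two-sided), and p-values were adjusted over all of them after Benjamini and Hochberg. Per gene, the probe set with the highest mean intensity over 6 arrays was used. Besides Stx1a and Stx18, those of Stx6, Vamp3 and Snap47 carry the suffix _x_at and that of Stx5a carries _s_at. Intensities of different probe sets are not compared as levels.

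The genes and lists were chosen with earlier results of these data known. Genes were named by rule: those past the threshold, the 15 brightest, the 10 nearest the threshold, the granins, the neighbours of Arntl within 20 Mb, and, per further list, up to 6 past the threshold or else the 2 with the smallest p. Not every such gene is printed. Syt4's further probe set, the untested Cplx3 and Syt12, and a few relatives were named after their values were seen. Promoter windows are from RefSeq, matched by gene ID for 52 of 67 genes. The test was checked on simulated data. The replicate numbers do not pair the genotypes. The alternatives were pseudocounts of 1 and 64, other normalizations, filters and variance models, each array left out, other probe set rules and other thresholds.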

Additional observations from a re-analysis of the deposited data

How the results depend on the processing

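The Stx1a, Syt9 and Syt17 differences kept their direction and stayed past the threshold in the 16 alternatives run for every named gene, with log2 fold changes of 0.65 to 1.16, 0.41 to 0.56 and -0.84 to -0.50 and adjusted p up to 0.0320, 0.0464 and 0.0208. Without _x_at and _s_at probe sets, run for the counts, Stx1a did not pass (0.56, adjusted p = 0.0693). The number of exocytosis genes called, 3, was 3 to 9 when 1 array was left out (2 to 3 higher, 1 to 6 lower), where 2.59% to 6.97% of all tested genes passed. It was 4 with robust eBayes and with array weights (6.12% and 6.26% of all genes), Stx18 being added. It was 6 when the probe sets of each gene were averaged (3 lower; Syt4, Stx5a and Stx18 were added; 6% of all genes), 7 at an adjusted p under 0.1 (4 higher, 3 lower; 10.6% of all genes), and 1 without the genes within 20 Mb of Arntl (1 higher, 0 lower). The number called higher was 1 at an adjusted p under 0.01 (Stx1a) and 1 without _x_at and _s_at probe sets (Syt9). Syt17 was called lower in both. In these settings 1.98% and 5.84% of all tested genes passed in either direction. Counting any probe set, an alternative chosen after seeing the data, gave 4, against 7.12% of all tested genes. The 6 calls in the further lists became 3 with a pseudocount of 1, where 5.24% of all tested genes passed. They became 2 with no filter (1.78% of all genes) and 1 with no intensity trend (3.1% of all genes). When 1 array was left out they numbered 2 to 6, beside the shares of all genes given above. Synpr passed in all 16 alternatives, Pam in 14, Pcsk1 in 12, Pcsk1n in 8, Baiap3 in 6 and Cadps in 5.

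Genes near 0 that never passed changed sign under some settings. With Stx12 these were a pseudocount of 64 (0.00055) and omissions of 1 array (-0.10 to 0.10). Quantile normalization turned Chgb (0.078), and averaging probe sets turned Vamp4 (-0.023) and Stx6 (-0.025). Omitting 1 array turned Chga (-0.20 to 0.10), Chgb (-0.069 to 0.0040), Snap25 (-0.034 to 0.11), Vamp4 (-0.024 to 0.062), Stx6 (-0.017 to 0.083), Syt1 (-0.30 to 0.021) and Stx4a (-0.12 to 0.041). The cause of these changes was not tested. No paired analysis was possible because the replicate numbers, 1 to 3 and 4 to 6, are not shared between the genotypes.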
